A study of Oryza sativa Japonica Group with 6 samples.

Results

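The genes described here are rice transcription factors of the NAC and WRKY families, measured in grains of an sgs3 mutant and of the wild-type line Zhenong 34. A gene was counted as NAC where its deposited description contains "NAC domain" or "NAC transcription factor", and as WRKY where it contains "WRKY". That rule took 200 of the 55983 genes listed, 91 NAC and 109 WRKY, and used no measured value; 2 further loci whose descriptions match are not reported here. The mutant grains carry a treatment label of EMS, for ethyl methanesulfonate, a chemical that makes mainly point mutations, and the Zhenong 34 grains are labelled wild type and control. Each group had 3 libraries of messenger RNA made with a SMARTer kit and run on an Illumina HiSeq. The labels give neither the stage of the grains nor the mutated gene, and nothing in them ties the libraries to separate plants, so a p-value here sets a difference against library-to-library spread that could be technical. Levels are in TPM (a transcript level per length, relative to the rest of the same library). In a whole grain, fewer cells of a type and less RNA per cell cannot be told apart.

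NAC proteins are a plant-specific family that binds DNA through a conserved N-terminal NAM domain and activates or represses genes through a variable C-terminal part. Members act in organ boundaries, secondary walls, senescence, stress responses and, for a small clade in rice, the filling of the endosperm with starch and storage protein. WRKY proteins bind W-box motifs in promoters through a domain that holds the letters giving the family its name. They are known above all from defence and from hormone signalling, including the gibberellin and abscisic acid responses of the cereal aleurone, and many are acted on by mitogen-activated protein kinases.

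The domain column of the deposited table fitted the NAC label closely, and the WRKY label less so. Of the 91 NAC genes 89 carry the Pfam NAM domain. Of the 109 WRKY genes 97 carry the Pfam WRKY domain, and the other 12 are all described as probable WRKY transcription factor 19. In Arabidopsis, WRKY19 is a large protein that joins a disease-resistance part of the NB-LRR type to a WRKY domain. Of those 12 rice genes, LOC_Os09g15850 has the NB-ARC and leucine-rich repeat domains of a resistance protein, and the other 11 have no Pfam domain listed. Results for WRKY genes are therefore also given for the 97 with the domain.

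Library composition differed within and between the groups. Endosperm markers (48 glutelin, prolamin and granule-bound starch synthase genes, 2 of them at 0 throughout) summed to between 367351 and 425083 TPM in mutant libraries, against 43095, 302806 and 232377 TPM in wild-type replicates 1, 2 and 3. Markers of dividing cells (21 cyclin and PCNA genes, 1 at 0 throughout) summed to between 82.4 and 178 TPM in mutant libraries, against 723, 201 and 302 TPM in wild-type replicates 1, 2 and 3. Summed over 13 late embryogenesis abundant genes, mutant libraries held between 431 and 623 TPM, and wild-type replicates 118, 232 and 1531 TPM. Summed over 4 oleosin genes, mutant libraries held between 2854 and 3823 TPM, and wild-type replicates 1017, 2591 and 4269 TPM. Markers of green layers (20 chlorophyll a-b binding protein and ribulose bisphosphate carboxylase small chain genes) summed to 26.5, 408 and 136 TPM in mutant replicates and 359, 25.3 and 87.6 TPM in wild-type replicates. Wild-type replicate 1 thus stood apart by low endosperm and high dividing-cell markers, and wild-type replicate 3 by late seed markers. The mutant libraries also differed among themselves in green-layer markers. As TPM is relative, differences are given as deposited and, for the tested genes whose values are printed, also after median-of-ratios scaling, which divides each library by the median ratio of its genes to their mean over libraries. The scaling factors lay between 0.50 and 0.94 in mutant libraries and between 1.06 and 1.99 in wild-type libraries. The part of these differences in the results below was not tested.

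Together the NAC genes were several times more abundant than the WRKY genes. The 91 NAC genes summed to 1757, 1692 and 1746 TPM in mutant replicates 1 to 3, and to 1898, 2372 and 1821 TPM in wild-type replicates 1 to 3. As deposited, all mutant sums lay below all wild-type sums; after scaling they were 3549, 2505 and 1861 in mutant replicates and 955, 2238 and 1204 in wild-type replicates, which overlap. The 109 WRKY genes summed to 197, 252 and 301 TPM in mutant replicates and to 489, 323 and 379 TPM in wild-type replicates, all mutant sums below all wild-type sums. After scaling this order turned round: the WRKY sums were 397, 373 and 321 in mutant replicates and 246, 305 and 250 in wild-type replicates, all mutant sums above all wild-type sums. The ratio of the NAC to the WRKY sum was between 5.81 and 8.94 in mutant libraries and between 3.88 and 7.33 in wild-type libraries, so the ranges of this ratio overlapped. The 12 genes without a WRKY domain held 65.9%, 62.3% and 64.4% of the WRKY sum in mutant replicates, against 48.7%, 62.6% and 46.0% in wild-type replicates. After scaling these 12 summed to 262, 232 and 206 in mutant replicates and to 120, 191 and 115 in wild-type replicates. The turned order of the scaled WRKY sums was thus seen in these 12 and not in the genes with the domain. The 97 genes with the domain summed to 67.0, 94.9 and 107 TPM in mutant replicates and to 251, 121 and 205 TPM in wild-type replicates; after scaling the groups overlapped, at 135, 141 and 114 in mutant replicates and 126, 114 and 135 in wild-type replicates.

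**Figure D1:**
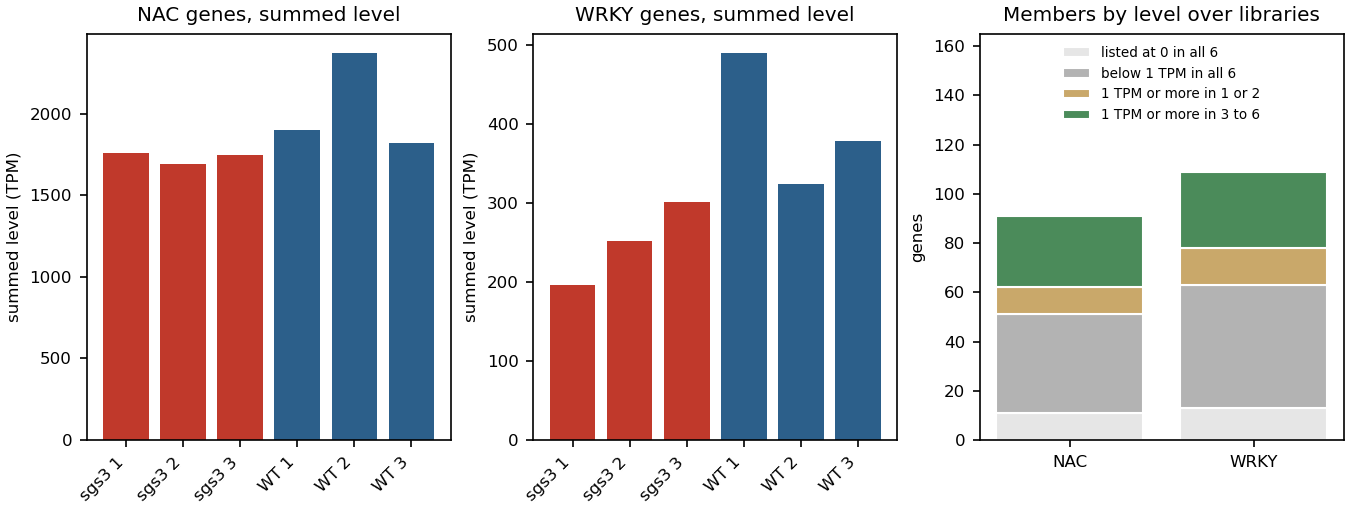
The left and middle panels show the summed TPM of the 91 NAC genes and of the 109 WRKY genes, one bar per library, sgs3 mutant in red and wild type (WT) in blue, on axes that start at 0. The right panel stacks the genes of each family by the number of libraries in which they reached 1 TPM. On these deposited values the mutant bars are lower than the wild-type bars in both families. After scaling the NAC sums overlap and the WRKY sums are higher in every mutant library. The scaled sums of the 97 genes with a WRKY domain alone overlap. Most genes of each family are at low levels.

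Most genes of both families were at or near 0 in these grains. Of the NAC genes 11 were listed at 0 in all 6 libraries, 40 stayed below 1 TPM in all, 11 reached 1 TPM in 1 or 2 libraries, and 29 reached it in at least 3 and were tested. Of the WRKY genes 13 were listed at 0, 50 stayed below 1 TPM, 15 reached it in 1 or 2 libraries, and 31 were tested. The tested share was 31.9% of NAC genes, 28.4% of WRKY genes and 29.2% of all genes. The bars of members by level show the same division.

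A few genes held nearly all of the NAC level. Averaged over the 6 libraries, the top 2 NAC genes held 74.3% of the family's level, with a range of 66.3% to 80.7% over libraries, and the top 10 held 95.9%. Both belong to the seed-expressed NACs of rice. ONAC025 (LOC_Os11g31330, described after wheat NAM-B1) had 728.58, 776.01 and 665.78 TPM in mutant replicates 1 to 3, and 737.46, 721.09 and 566.73 TPM in wild-type replicates 1 to 3. ONAC023 (LOC_Os02g12310, described as NAC domain-containing protein 18) had 688.76, 514.82 and 681.89 TPM in mutant replicates, and 547.72, 1121.86 and 640.29 TPM in wild-type replicates. For both genes the groups overlapped, and the highest ONAC023 value was wild-type replicate 2. Their log2 differences (mutant minus wild type, on the log2(TPM + 1) scale used throughout) were 0.11 ± 0.40 and -0.23 ± 0.45 (SE, n = 3 each), with adjusted p of 0.834 and 0.677 in limma. After scaling they were 1.22 ± 0.46 and 0.88 ± 0.58 (SE), with adjusted p of 0.122 and 0.316. Neither gene passed the test on either scale, and the scaled mutant values of ONAC025 all lay above the scaled wild-type values.

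The next NAC genes were several times lower. ONAC024 (LOC_Os05g34310, NAC transcription factor 25), another NAC known from rice seeds, had 130.39, 120.44 and 147.92 TPM in mutant replicates and 252.77, 233.28 and 176.21 TPM in wild-type replicates. Every mutant value was below every wild-type value, yet the log2 difference of -0.72 ± 0.35 (SE) did not pass the test (adjusted p = 0.125). After scaling the difference was 0.39 ± 0.36 (SE, adjusted p = 0.460) and the groups overlapped. LOC_Os01g70110 (NAC domain-containing protein 68) had 63.95, 85.78 and 56.49 TPM in mutant replicates and 79.37, 54.87 and 48.79 TPM in wild-type replicates, with overlapping groups. It had the highest log2 difference of the tested NAC genes, 0.18 ± 0.36 as deposited and 1.28 ± 0.36 after scaling (SE), and neither passed the test (adjusted p = 0.688 and 0.0859). The fifth by level, LOC_Os05g35170, is described with the fallen genes below.

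The WRKY level was spread more evenly and was led by genes whose WRKY label is weak. The top 2 WRKY genes held 40.2% of the family's level and the top 10 held 72.1%. Of the 5 highest, 4 are described as probable WRKY transcription factor 19, and 3 of these have no Pfam domain. LOC_Os04g38520 had 65.16, 78.75 and 93.81 TPM in mutant replicates and 140.08, 118.28 and 95.40 TPM in wild-type replicates. Its highest mutant and lowest wild-type values nearly met, and its log2 difference of -0.57 ± 0.35 (SE) did not pass the test (adjusted p = 0.202); after scaling it was 0.54 ± 0.29 (SE, adjusted p = 0.236). The locus numbered next to it, LOC_Os04g38525, had 21.20, 29.04 and 29.91 TPM in mutant replicates and 15.71, 34.83 and 20.29 TPM in wild-type replicates. Its groups overlapped, and its log2 difference was 0.23 ± 0.38 as deposited and 1.29 ± 0.47 after scaling (SE, adjusted p = 0.624 and 0.118). Both loci have the same description and no domain, and whether their sequences are alike was not examined. How reads shared by similar loci were assigned is not given, so their values are uncertain.

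LOC_Os08g17400 is the only gene described as WRKY19 that carries a WRKY domain. It had 20.21, 24.67 and 25.09 TPM in mutant replicates and 53.14, 31.39 and 33.68 TPM in wild-type replicates. As deposited the groups did not overlap, and the log2 difference of -0.70 ± 0.34 (SE) did not pass the test (adjusted p = 0.124); after scaling it was 0.38 ± 0.24 (SE, adjusted p = 0.293). LOC_Os06g33180 had 8.63, 12.47 and 16.39 TPM in mutant replicates and 33.20, 18.61 and 15.27 TPM in wild-type replicates, which overlap; its log2 difference was -0.76 ± 0.40 as deposited and 0.29 ± 0.25 after scaling (SE, adjusted p = 0.151 and 0.434). The fifth of the highest WRKY genes, LOC_Os03g53050, passed the test and is described below. The plot of the highest members shows ONAC025 and ONAC023 well above the other genes, in both groups.

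**Figure D2:**
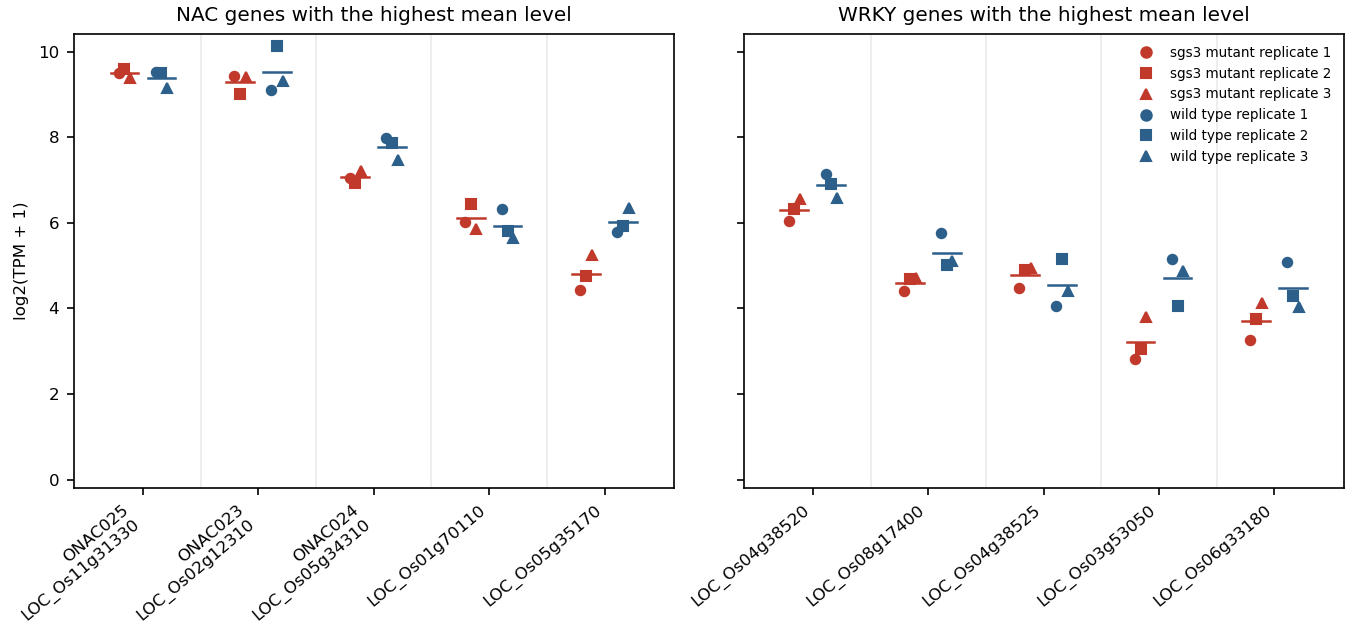
Level of the 5 NAC genes (left) and 5 WRKY genes (right) with the highest mean TPM, as log2(TPM + 1), with one symbol per library, sgs3 mutant in red to the left of wild type in blue, and a line at each group's mean. ONAC025 and ONAC023 stand between 514.82 and 1121.86 TPM with overlapping groups, while LOC_Os05g35170 and LOC_Os03g53050 have every mutant library below every wild-type library.

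As deposited, most tested members of both families had negative differences, as did most genes in the whole table. Of 29 tested NAC genes 0 rose and 3 fell, at an adjusted p under 0.05 over all 16352 genes tested; 6 had an unadjusted p under 0.05. Of 31 tested WRKY genes 1 rose and 5 fell, and 8 had an unadjusted p under 0.05. These are 20.7% of NAC and 25.8% of WRKY genes with an unadjusted p under 0.05, against 51.5% of all tested genes. Over all tested genes 1.55% rose and 26.3% fell, so that 10.3% of NAC genes and 16.1% of WRKY genes that fell are both smaller shares than that of all genes. The median log2 difference was -0.36 for NAC genes, -0.72 for WRKY genes and -0.86 for all tested genes. The 22 tested genes with a WRKY domain held all 5 falls and had a median of -0.83, near that of all genes. The 9 tested genes without it held the rise and had a median of -0.57. No test of the difference between the families was made.

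Scaling removed most of these calls. After it 1 NAC gene fell and 0 rose, and 1 WRKY gene rose and 0 fell, while over all tested genes 1.56% rose and 0.966% fell. The median difference of all tested genes became 0.00, that of NAC genes 0.42 and that of WRKY genes 0.12. For the 22 genes with a WRKY domain the scaled median was 0.01 and none was called; 3 (13.6%) had an unadjusted p under 0.05, against 33.2% of all tested genes. The plot of tested members shows this shift to the right.

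The separation of the groups gave a similar picture. As deposited, all mutant libraries lay below all wild-type libraries for 11 of 29 NAC genes and 13 of 31 WRKY genes, against 52.6% of all tested genes. The reverse held for 0 NAC genes and 1 WRKY gene, against 3.68% of all genes. After scaling, mutant libraries were all lower for 1 NAC gene and 3 WRKY genes (19.4% of all genes) and all higher for 5 NAC genes and 5 WRKY genes (18.5% of all genes). The 9 members that passed the test on the deposited values are given next by family.

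**Figure D3:**
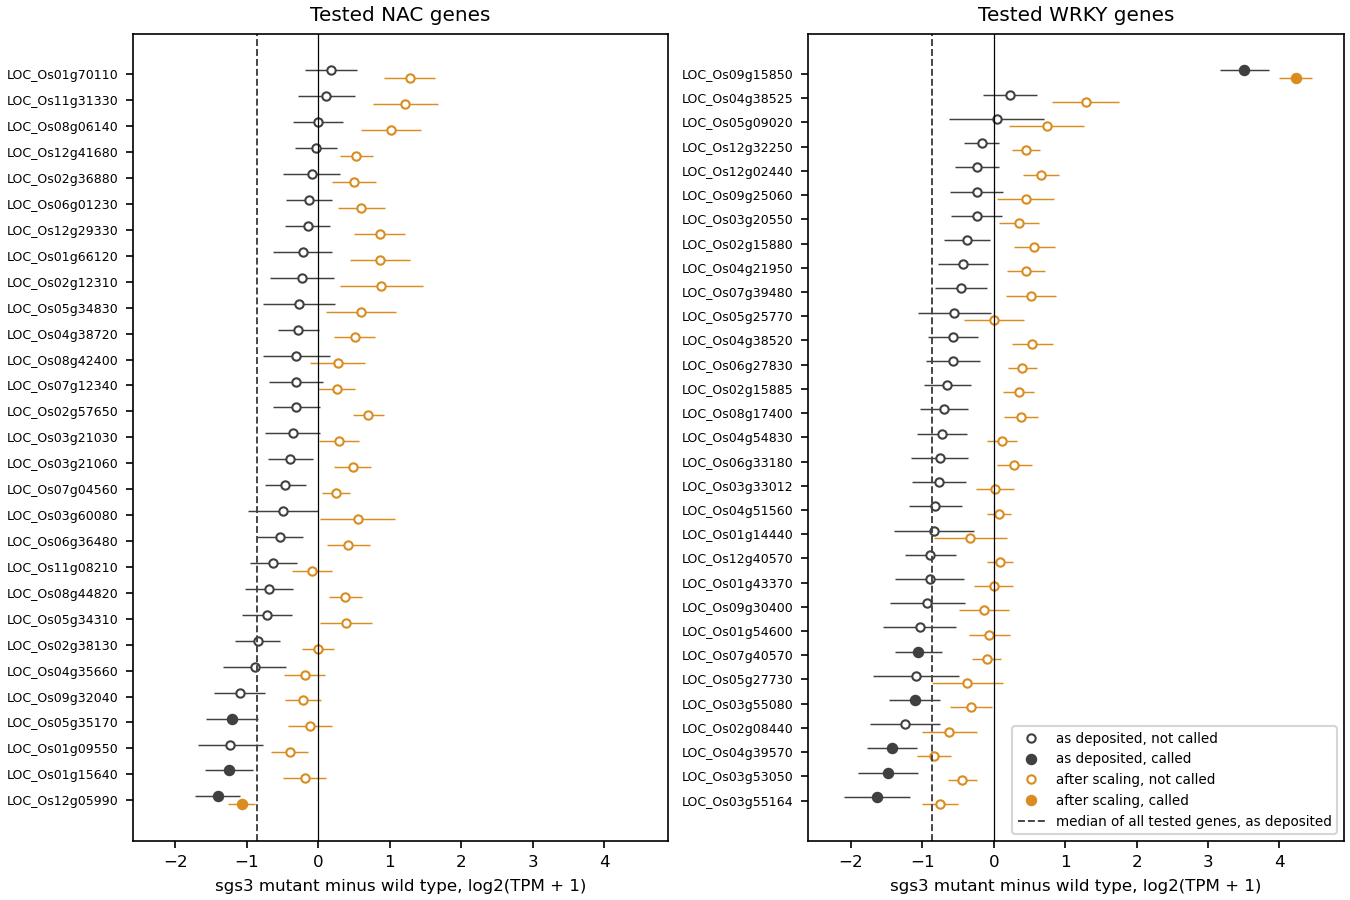
Log2 difference (sgs3 mutant minus wild type, log2(TPM + 1) scale) of the 29 tested NAC genes (left) and 31 tested WRKY genes (right), with bars of 1 SE, as deposited in grey and after median-of-ratios scaling in orange. Filled points passed an adjusted p under 0.05, and the dashed line marks the median of all tested genes as deposited, -0.86. LOC_Os12g05990 and LOC_Os09g15850 are filled on both scales.

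Of the NAC genes, LOC_Os12g05990 (NAC domain-containing protein 90) passed the test on both scales. In Arabidopsis, NAC090 belongs to a group of NACs that restrain leaf senescence. The rice gene was listed at 0 TPM in all 3 mutant libraries, against 3.11, 1 and 1.27 TPM in wild-type replicates 1 to 3. Its adjusted p was 0.0436 as deposited and 0.0397 after scaling. With no filter on low values it was 0.118, and with the replicate block 0.0706 as deposited and 0.116 after scaling, so the call was lost under each of these. The gene reached the filter through the wild-type libraries alone, so that it could only have been tested as a fall, and at 1 TPM the reads behind a value are few and unknown. Without any one library the scaled call was kept only when mutant replicate 3 was left out (adjusted p = 0.0376); the other scaled values ran to 0.156.

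The other NAC falls were of well-expressed genes. LOC_Os01g15640 (NAC domain-containing protein 74) had 12.15, 11.70 and 16.49 TPM in mutant replicates, against 29.16, 28.55 and 42.65 TPM in wild-type replicates. It averaged 13.4 ± 2.65 TPM in mutant and 33.5 ± 7.97 TPM in wild-type grains (SD, n = 3 each), with a log2 difference of -1.25 ± 0.34 (SE, adjusted p = 0.0436). LOC_Os05g35170 (NAC domain-containing protein 78) had 20.50, 26.05 and 37.27 TPM in mutant replicates, against 54.24, 60.08 and 80.52 TPM in wild-type replicates. Its means were 27.9 ± 8.54 TPM in mutant and 64.9 ± 13.8 TPM in wild-type grains (SD, n = 3 each), with a log2 difference of -1.21 ± 0.36 (SE, adjusted p = 0.0450). In both genes replicate 3 was the highest library of its group and the groups stood apart. After scaling their differences were -0.19 ± 0.30 and -0.12 ± 0.31 (SE, adjusted p = 0.685 and 0.796), with overlapping groups.

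The single rise belonged to a gene that is WRKY by description only. LOC_Os09g15850, with NB-ARC and leucine-rich repeat domains and no WRKY domain, had 15.67, 13.62 and 20.18 TPM in mutant replicates, against 0.98, 0.23 and 0.44 TPM in wild-type replicates. It averaged 16.5 ± 3.36 TPM in mutant and 0.55 ± 0.39 TPM in wild-type grains (SD, n = 3 each). The log2 difference was 3.51 ± 0.34 as deposited and 4.23 ± 0.23 after scaling (SE), with adjusted p of 0.0016 and 2.36e-04. It reached the filter through the mutant libraries alone, so that in runs with that filter it could only have been tested as a rise. Its adjusted p stayed under 0.05 in every alternative run, the highest being 0.0221 with no filter on low values. The rice NB-LRR genes are a large multigene family, so reads shared with near-identical copies may be counted here.

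The 5 WRKY falls were all of genes with a WRKY domain. LOC_Os03g55164 (probable WRKY transcription factor 58) had 1.42, 2.15 and 4.10 TPM in mutant replicates, against 17.35, 6.14 and 8.03 TPM in wild-type replicates (log2 difference -1.64 ± 0.46 SE, adjusted p = 0.0437). LOC_Os03g53050 (protein WRKY1) had 6.06, 7.29 and 12.94 TPM in mutant replicates, against 34.83, 15.67 and 28.47 TPM in wild-type replicates (log2 difference -1.48 ± 0.42 SE, adjusted p = 0.0437). LOC_Os04g39570 (probable WRKY transcription factor 2) had 0.20, 0.47 and 1.32 TPM in mutant replicates, against 3.90, 2.22 and 3.96 TPM in wild-type replicates (log2 difference -1.42 ± 0.35 SE, adjusted p = 0.0436). In all of these genes mutant replicate 3 was the highest mutant library, and wild-type replicate 2 the lowest wild-type library. LOC_Os03g55080 (probable WRKY transcription factor 57) had 1.45, 1.19 and 2.06 TPM in mutant replicates, against 3.72, 3.29 and 7.12 TPM in wild-type replicates (log2 difference -1.11 ± 0.36 SE, adjusted p = 0.0496). LOC_Os07g40570 (probable WRKY transcription factor 20) had 3.27, 3.88 and 4.60 TPM in mutant replicates, against 12.02, 7.56 and 8.41 TPM in wild-type replicates (log2 difference -1.06 ± 0.33 SE, adjusted p = 0.0480). In none of the 5 did the groups overlap as deposited.

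These falls stood close to the threshold. All 8 NAC and WRKY falls had an adjusted p between 0.0436 and 0.0496, and all 8 were lost without wild-type replicate 1, wild-type replicate 3, mutant replicate 1 or mutant replicate 2; without wild-type replicate 1 their adjusted p lay between 0.0610 and 0.110. LOC_Os03g55080 and LOC_Os07g40570 were also lost without mutant replicate 3. Over all tested genes 4295 fell with all libraries in, and 300 without wild-type replicate 1. Without wild-type replicate 3, mutant replicate 1 or mutant replicate 2 the falls numbered 79, 51 and 53. Losses in those runs were thus not particular to these members. Without wild-type replicate 2 or mutant replicate 3 the falls instead numbered 7745 and 5578. In limma, unadjusted p of 0.00158 for LOC_Os12g05990 and 0.00516 for LOC_Os01g15640 both gave an adjusted p of 0.0436. After scaling none of the 5 WRKY falls passed the test. Their scaled differences were -0.75 ± 0.25 (LOC_Os03g55164), -0.44 ± 0.20 (LOC_Os03g53050), -0.84 ± 0.24 (LOC_Os04g39570), -0.32 ± 0.29 (LOC_Os03g55080) and -0.10 ± 0.20 (LOC_Os07g40570), each with its SE. In the first 3 of these the scaled groups still did not overlap. In the plot of called members the deposited values separate in all 9 genes, and the scaled values in 5. The 9 genes were picked by the test on the deposited values, so their separation there adds nothing to the calls. Over all tested genes the mutant libraries were all lower in 52.6% and all higher in 3.68% as deposited, and in 19.4% and 18.5% after scaling.

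**Figure D4:**
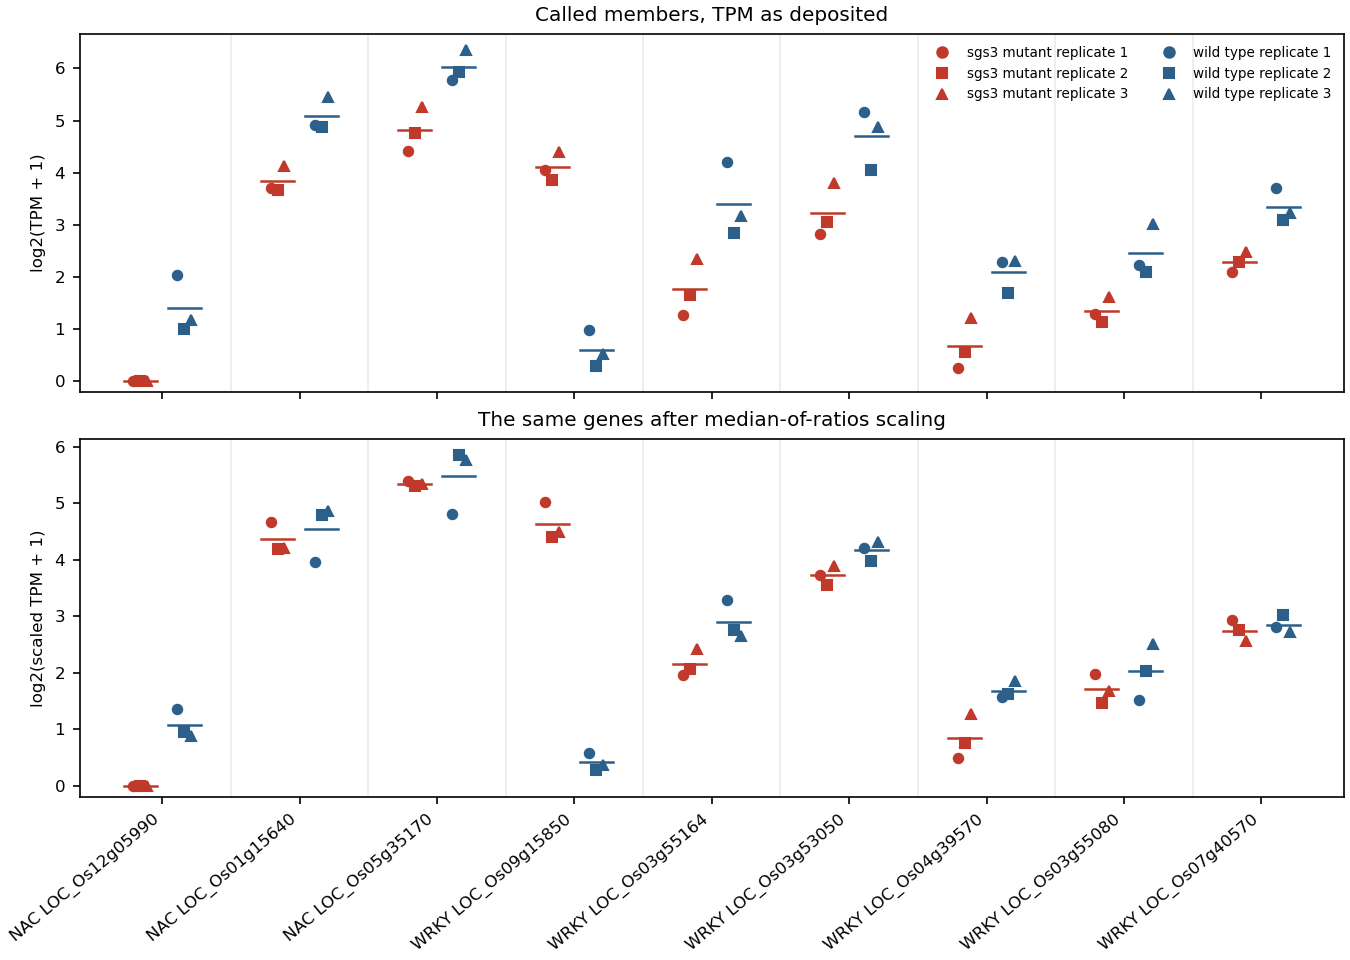
Level of the 9 members called on the deposited values, as log2(TPM + 1) in the upper panel and as log2 of the scaled TPM + 1 in the lower one, with one symbol per library, sgs3 mutant in red to the left of wild type in blue, and a line at each group's mean. LOC_Os09g15850 is high in all mutant libraries, LOC_Os12g05990 is at 0 in all of them, and for LOC_Os01g15640, LOC_Os05g35170, LOC_Os03g55080 and LOC_Os07g40570 the groups overlap after scaling.

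A run of NAC genes on chromosome 11 shows what the description rule leaves out. ONAC025 is followed, in locus number, by 3 genes that carry the Pfam NAM domain and a blank description: ONAC127 (LOC_Os11g31340), LOC_Os11g31360 and ONAC129 (LOC_Os11g31380). ONAC127 and ONAC129 are known as a pair of proteins that bind each other and act in grain filling in rice; LOC_Os11g31360 was chosen after its values were seen. ONAC129 had 158.8, 167.86 and 130.27 TPM in mutant replicates, against 11.87, 12.81 and 9.74 TPM in wild-type replicates. Its lowest mutant value was about an order of magnitude above its highest wild-type value, and its log2 difference was 3.62 ± 0.32 as deposited and 4.67 ± 0.39 after scaling (SE, adjusted p = 9.14e-04 and 0.0014).

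Its neighbours had smaller differences, of which that of LOC_Os11g31360 passed the test on both scales and that of ONAC127 on neither. With no filter on low values, as deposited, the call of LOC_Os11g31360 was lost (limma, adjusted p = 0.118). ONAC129 still passed there (adjusted p = 0.00687). Runs with a library left out or with the replicate block are not reported for ONAC129 and these neighbours. LOC_Os11g31360 had 12.71, 15.68 and 24.95 TPM in mutant replicates, against 4.66, 6.20 and 7.36 TPM in wild-type replicates (log2 difference 1.37 ± 0.37 SE, adjusted p = 0.0436; 2.35 ± 0.29 SE after scaling, adjusted p = 0.00939). ONAC127 had 34.34, 31.38 and 45.72 TPM in mutant replicates, against 26.20, 24.39 and 35.69 TPM in wild-type replicates, which overlap (log2 difference 0.36 ± 0.34 SE, adjusted p = 0.386; 1.44 ± 0.30 SE after scaling, adjusted p = 0.0579). The sequences of these neighbouring NACs were not compared, and how any reads common to them were assigned is not given. In all, 46 genes with a NAM domain lacked a NAC description, and 8 of them were tested. LOC_Os11g31360 and ONAC129 rose (25.0% of the 8, against 1.55% of all tested genes). LOC_Os01g71790 and LOC_Os07g31410 fell (25.0% of the 8, against 26.3% of all tested genes). Neither fall passed the test after scaling (limma, adjusted p = 0.0932 and 0.163). The 46 genes summed to 223, 241 and 228 TPM in mutant replicates, against 115, 72.3 and 101 TPM in wild-type replicates, with all mutant sums higher after scaling too. ONAC129 alone made up 158.8, 167.86 and 130.27 TPM of these mutant sums, against 11.87, 12.81 and 9.74 TPM of the wild-type sums. As deposited, the difference between the group sums therefore mostly reflects that gene and does not show a rise of the set. After scaling the sums were 451, 357 and 243 in mutant replicates, and 57.8, 68.2 and 66.9 in wild-type replicates. ONAC129 held 321, 249 and 139 of these scaled mutant sums, and 5.97, 12.1 and 6.44 of the wild-type ones. Whether the other genes rose as a set after scaling was not tested.

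Among the NACs known from stress and senescence, no tested member passed the test on either scale. SNAC1 (LOC_Os03g60080), which acts in drought tolerance and stomatal closure, had 12.35, 18.18 and 15.30 TPM in mutant replicates, and 12.28, 17.53 and 46.54 TPM in wild-type replicates. SNAC2 (LOC_Os01g66120), a stress-induced NAC, had 26.64, 40.27 and 32.10 TPM in mutant replicates, and 28.88, 29.29 and 64.39 TPM in wild-type replicates. In both, wild-type replicate 3 alone stood above the mutant range; the log2 differences of -0.50 ± 0.49 and -0.22 ± 0.41 (SE, adjusted p = 0.410 and 0.669) became 0.04 and 0.16 without that library, and 0.55 ± 0.53 and 0.86 ± 0.42 after scaling (SE, adjusted p = 0.480 and 0.189). OsNAP (LOC_Os03g21060), a promoter of leaf senescence, had 3, 2.37 and 3.69 TPM in mutant replicates, and 4.12, 3.73 and 4.85 TPM in wild-type replicates (log2 difference -0.39, or 0.48 after scaling; adjusted p = 0.320 and 0.232). OsNAC5 (LOC_Os11g08210) had 0.31, 1.16 and 0.73 TPM in mutant replicates, and 1.47, 1.02 and 2.67 TPM in wild-type replicates (log2 difference -0.63, or -0.09 after scaling; adjusted p = 0.143 and 0.840). OsNAC10 (LOC_Os11g03300) and the secondary wall regulators OsSWN1 (LOC_Os06g04090) and OsSWN2 (LOC_Os08g02300) stayed below 1 TPM in all libraries and were not tested.

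Of the WRKYs known from grain size and hormone responses, none that was tested passed the test on either scale with all libraries in. OsWRKY53 (LOC_Os05g27730), a positive regulator of brassinosteroid signalling and grain size, had 0.50, 1.49 and 1.43 TPM in mutant replicates, and 4.65, 0.63 and 8.50 TPM in wild-type replicates (log2 difference -1.09 ± 0.60 SE, adjusted p = 0.163). OsWRKY71 (LOC_Os02g08440), a repressor of gibberellin signalling in the aleurone, had 0.22, 0.88 and 1.48 TPM in mutant replicates, and 4.10, 1.06 and 6.17 TPM in wild-type replicates (log2 difference -1.24 ± 0.49 SE, adjusted p = 0.0764). In both genes wild-type replicate 2 lay within the mutant range, and the other wild-type libraries above it. Without wild-type replicate 2 both passed the test as deposited, OsWRKY53 at -1.81 and OsWRKY71 at -1.76 (adjusted p = 0.0137 for each), while without wild-type replicate 3 they were at -0.54 and -0.86 (adjusted p = 0.454 and 0.209). After scaling, with all libraries in, the differences were -0.37 ± 0.50 for OsWRKY53 and -0.62 ± 0.39 for OsWRKY71 (SE, adjusted p = 0.618 and 0.287). OsWRKY51 (LOC_Os04g21950), which binds DNA together with OsWRKY71, had 2.29, 4.05 and 3.30 TPM in mutant replicates, and 4.32, 3.42 and 6.4 TPM in wild-type replicates (log2 difference -0.43, or 0.45 after scaling; adjusted p = 0.328 and 0.271). OsWRKY78 (LOC_Os07g39480), known from stem elongation and seed development, had 5.43, 7.24 and 6.97 TPM in mutant replicates, and 6.75, 8.61 and 13.65 TPM in wild-type replicates (log2 difference -0.46, or 0.52 after scaling; adjusted p = 0.308 and 0.324). OsWRKY24 (LOC_Os01g61080) reached 1 TPM in wild-type replicate 3 alone (2.16 TPM), and OsWRKY72 (LOC_Os11g29870) in no library; neither was tested.

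The defence WRKYs were low in both groups, and none passed the test with all libraries in. OsWRKY45 (LOC_Os05g25770), a central activator of the salicylic acid branch of rice defence, had 0.13, 1.43 and 1.24 TPM in mutant replicates, and 4.46, 0.50 and 1.34 TPM in wild-type replicates (log2 difference -0.55, or 0.0071 after scaling; adjusted p = 0.382 and 0.992). OsWRKY76 (LOC_Os09g25060), a repressor of blast resistance, had 1.62, 2.29 and 1.22 TPM in mutant replicates, and 1.01, 2.56 and 3.43 TPM in wild-type replicates (log2 difference -0.24, or 0.45 after scaling; adjusted p = 0.594 and 0.447). OsWRKY1 (LOC_Os01g14440) had 0.05, 1.07 and 0.75 TPM in mutant replicates, and 2.14, 0.17 and 4.9 TPM in wild-type replicates (log2 difference -0.84, or -0.33 after scaling; adjusted p = 0.235 and 0.667). For each of these the groups overlapped. OsWRKY1 passed the test without wild-type replicate 2 (-1.46, adjusted p = 0.0207) and was at -0.30 without wild-type replicate 3 (adjusted p = 0.639). OsWRKY62 (LOC_Os09g25070) and OsWRKY28 (LOC_Os06g44010), relatives of OsWRKY76, reached 1 TPM in wild-type replicate 3 alone, at 2.08 and 1.31 TPM, and OsWRKY70 (LOC_Os05g39720) in no library. The plot of genes with a known role sets ONAC129 beside these members.

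**Figure D5:**
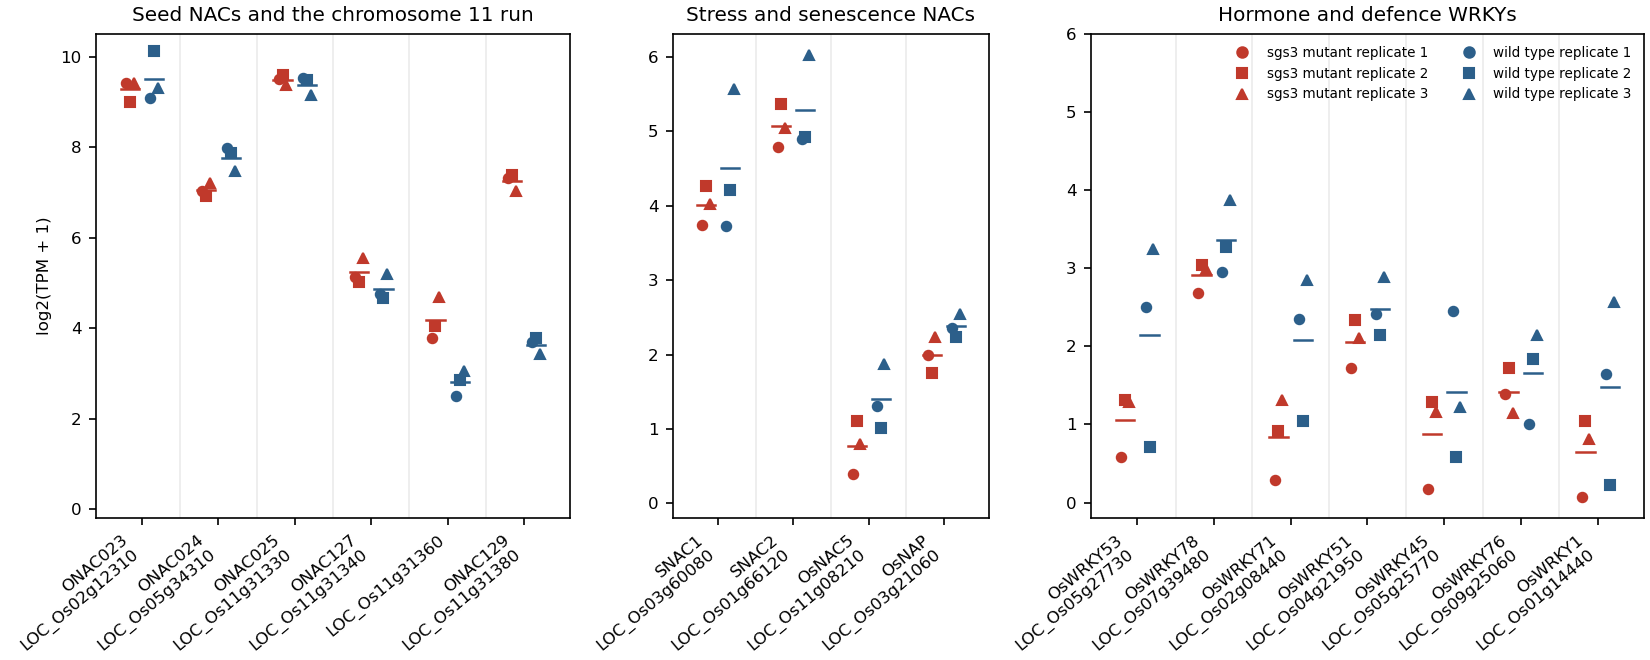
Level, as log2(TPM + 1), of seed NACs with the neighbours of ONAC025 on chromosome 11 (left), of stress and senescence NACs (middle) and of hormone and defence WRKYs (right), each panel on its own axis, with one symbol per library, sgs3 mutant in red to the left of wild type in blue, and a line at each group's mean. ONAC129 separates the groups widely, and in SNAC1, SNAC2, OsWRKY53, OsWRKY71 and OsWRKY1 the triangle of wild-type replicate 3 is the highest point.

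The highest library of each group was counted for every tested gene. Among wild-type libraries, replicate 1 was the highest for 41.4% of tested NAC genes and 54.8% of tested WRKY genes, against 67.7% of all tested genes. Replicate 3 was the highest for 51.7% of NAC genes, 38.7% of WRKY genes and 25.1% of all genes. Among mutant libraries, replicate 3 was the highest for 51.7% of NAC genes, 77.4% of WRKY genes and 74.6% of all genes. Whether the families differ from other genes in this was not tested.

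Among members that missed the filter, a pair of neighbouring loci on chromosome 9 with the same description, NAC domain-containing protein 74, had opposite patterns; the pair was chosen after its values were seen. LOC_Os09g38010 had 1.72, 2.42 and 0.66 TPM in mutant replicates, against 0.08, 0.00 and 0.00 TPM in wild-type replicates. LOC_Os09g38000 had 0.00, 0.05 and 0.05 TPM in mutant replicates, against 0.59, 0.17 and 0.23 TPM in wild-type replicates. In neither gene did the groups overlap. When all genes above 0 were tested, their log2 differences were 1.28 ± 0.29 and -0.35 ± 0.12 (SE), with adjusted p of 0.118 and 0.127. LOC_Os05g10620 (NAC domain-containing protein 8) had 6.11 TPM in wild-type replicate 3 and at most 0.63 TPM in each of the other 5 libraries.

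Splicing of the same genes gave a second readout. Of 5 kinds of event in the deposited tables, 33 events fell in NAC or WRKY genes: 14 retained introns, 12 alternative 3' splice sites, 3 alternative 5' splice sites, 4 skipped exons and 0 mutually exclusive exons. At least 20 junction reads in every library, the minimum set for a test, were reached by 11 events in 7 genes, and 0 passed an adjusted p under 0.05 with a difference in inclusion of at least 0.1, against 0.219% of all 5471 events tested; none of the 11 had an unadjusted p under 0.05. The smallest p among NAC events was that of an alternative 3' splice site in LOC_Os05g35170, the fallen NAC above. Its inclusion level (the fraction of length-corrected junction reads in the inclusion form) was 1, 1 and 0.96 in mutant libraries and 1 and 1 in the wild-type libraries given, from 124 to 190 reads per mutant library and 275 to 399 per wild-type library (difference -0.0133, adjusted p = 0.551). The next, a retained intron in ONAC025, had inclusion of 0, 0.001 and 0 in mutant libraries and 0 and 0 in wild-type libraries, from 1648 to 3146 reads (adjusted p = 0.562).

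The one WRKY event that could be tested was an alternative 3' splice site in LOC_Os08g17400. Its inclusion level was 0.814, 0.841 and 0.81 in mutant libraries and 0.777 and 0.791 in wild-type libraries, from 147 to 185 reads, so that all mutant values lay above the wild-type ones; the group means differed by 0.0382 (adjusted p = 0.580). In the authors' deposited table one member event had an adjusted p under 0.05, an alternative 5' splice site in LOC_Os05g10620 (0.00771). It had between 1 and 6 junction reads in mutant libraries and was not tested here. Inclusion there was 1, 1 and 0.495 in mutant libraries and 1 and 0.507 in wild-type libraries.

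Genes that act with these families, and other families of transcription factors, were taken from the same fit. Mitogen-activated protein kinases phosphorylate WRKYs in defence. The list of 56 genes was matched by that phrase, which also takes in the kinases that act on such kinases, and the kinds were not separated. Of the 56 genes 41 were tested, 1 rose and 3 fell, with a median log2 difference of -0.47. The rise is 2.44% of those tested, against 1.55% of all tested genes. Of 8 genes described as NPR1-like, receptors and co-activators of salicylic acid signalling, 2 were tested and 0 were called; both had an unadjusted p under 0.05 as deposited, as did 51.5% of all tested genes, and 0 of them after scaling. Of 49 pathogenesis-related genes, many of them downstream of WRKYs, 9 were tested, 0 were called and 2 had an unadjusted p under 0.05, with a median of -0.92. Among 138 ethylene-responsive factors 50 were tested, 0 rose and 4 fell (median -0.67), and among 58 MADS-box genes 30 were tested, 0 rose and 2 fell (median -0.49). All of these shares of fallen genes were below the 26.3% of all tested genes. After scaling 2 protein kinases (4.88% of those tested) and 1 MADS-box gene (3.33%) rose, against 1.56% of all tested genes. On that scale 0 genes of these lists fell, against 0.966% of all tested genes, so in lists this small few falls would be looked for.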

How the data were processed

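The deposited gene table is named for counts, but it holds the authors' TPM, given to 2 decimals, and its libraries sum to between 967526 and 994306. TPM keeps no read depth, so the depth behind gene values is unknown and no counting interval is given. Per the submitters' processing notes HISAT2 2.1.0, Bowtie2, RSEM and StringTie were among the tools used; the sources used here give no genome build, annotation or strand. The authors' deposited splicing tables hold junction reads, inclusion levels and an adjusted p-value per event. Their read headings contradict their inclusion headings: reads under one group's heading gave the inclusion levels under the other's within 5e-04 in all 12313 events with reads. Groups were taken from the inclusion headings; reads then followed TPM in 96% of 4927 events in genes changed at least 2-fold. Exon skipping had 3 libraries per group and other kinds 3 mutant and 2 wild-type libraries, with no replicate number.

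A count-based test had been planned should the table hold counts; as it holds TPM, limma 3.58.1 (R 4.3.3) with a mean-variance trend was fitted to log2(TPM + 1) of all genes with at least 1 TPM in at least 3 libraries, with 4 residual degrees of freedom and Benjamini-Hochberg adjustment over all of them. This scale understates changes of low genes. Splicing was tested with a quasi-binomial model on junction reads, with dispersions moderated by limma. Both were tested on simulated data. The simulation for limma drew noise separately for each gene and held no shift of a whole library. It therefore cannot speak to calls made under the composition differences of these libraries. Alternatives covered scaling, filter, pseudocount, trend, replicate block, each library left out, and members chosen by domain. Named genes were, per family, the 5 highest, the largest called rises and falls, those called on both scales, and a list of loci known from the literature, whose rice names are not in the table; exceptions are said to be so. The members and lists were chosen with earlier results of these data known. A planned list of VQ proteins matched 0 descriptions. Levels were handled and drawn with Python 3.11.15, numpy 2.4.6, pandas 2.3.3 and matplotlib 3.10.9.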

Additional observations from a re-analysis of the deposited data

How the results depend on the processing

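The number of genes called by limma over the whole table was 4548, and it was 413 after median-of-ratios scaling, 441 after a TMM-type scaling and 107 with no filter on low values. Of the NAC genes 3 were called, against 1 after either scaling and 0 with no filter; of the WRKY genes 6 were called, against 1 under each of these. With each library left out in turn the whole-table count ran between 94 and 8124, the NAC count between 0 and 7 and the WRKY count between 1 and 14. When scaling was combined with leaving out a library, an alternative added after seeing the data, the whole table gave 299 calls without wild-type replicate 1, 521 without replicate 2 and 218 without replicate 3; it gave 156, 155 and 2389 when mutant replicate 1, 2 or 3 was dropped. The NAC counts in these fits were 0 except for 4 without mutant replicate 3 (3 rises and 1 fall), and the WRKY counts were 1 except for 2 without wild-type replicate 2 and 2 without mutant replicate 3. With NAC genes chosen by the Pfam NAM domain, also added later, 7 were called (2 rises and 5 falls of 37). These are 5.41% and 13.5%, against 1.55% and 26.3% of all tested genes. A pseudocount of 0.1, a mean of at least 5 TPM and a fit with no trend left the 3 gene counts within 1.5 times the values reported, and 0 splicing events in these families were called at 10 or 50 junction reads or at a difference of 0.05. The cause of these changes was not tested.

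The correlations of deviations between same-numbered libraries were -0.527, 0.212 and -0.091 for replicates 1, 2 and 3. Between differently numbered libraries they ran from -0.557 to 0.541. They were taken on unscaled values, which hold the composition differences, so they cannot decide whether the libraries were paired. The main fit did not pair them. With the replicate block the fit called 132 genes over the table, 0 NAC and 1 WRKY; with scaling and the block, added later, it called 111, 0 NAC and 1 WRKY.

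Scaling turned the sign of several differences that had not passed the test. After median-of-ratios and TMM-type scaling, the log2 difference was 0.88 and 0.86 for LOC_Os02g12310, 0.39 and 0.37 for LOC_Os05g34310, 0.54 and 0.52 for LOC_Os04g38520, and 0.38 and 0.36 for LOC_Os08g17400. It was 0.29 and 0.27 for LOC_Os06g33180, 0.55 and 0.53 for LOC_Os03g60080, 0.86 and 0.85 for LOC_Os01g66120, and 0.48 and 0.46 for LOC_Os03g21060. It was 0.52 and 0.50 for LOC_Os07g39480, 0.45 and 0.43 for LOC_Os04g21950, and 0.45 and 0.44 for LOC_Os09g25060; for LOC_Os05g25770 it was 0.0071 after median-of-ratios scaling. Leaving out 1 library turned the sign of 5 named genes, whose values with a library left out ran between these ends: LOC_Os11g31330 between -0.01 (without wild-type replicate 3) and 0.18, LOC_Os02g12310 between -0.44 and 0.07 (without wild-type replicate 2), LOC_Os03g60080 between -0.88 and 0.04 (without wild-type replicate 3), LOC_Os01g66120 between -0.41 and 0.16 (without wild-type replicate 3), and LOC_Os04g38525 between -0.01 (without wild-type replicate 1) and 0.54. The read depth behind TPM is unknown, so differences near 1 TPM could not be set against counting error.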
